A study of Rattus norvegicus with 6 samples.

Results

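Amino acid transporters were examined in rat brain microvascular endothelial cells (rBMECs) exposed to homocysteine (Hcy). Members were taken by name, as every gene of the deposited count table whose symbol begins with Slc1a, Slc3a, Slc6a, Slc7a, Slc36a, Slc38a or Slc43a followed by a digit. This gave 62 of the 33566 genes in the table. Of these, 35 had at least 10 counts summed over the 6 libraries and were tested, 14 had between 1 and 9 counts, and 13 had 0 counts in every library. The rule used no measured value, but it was chosen with earlier results of these data known. Among the 35, Slc7a6os matches by symbol alone, and the deposited annotation describes it as a probable nuclear localization protein of RNA polymerase II, not a carrier. Slc43a3 is known as a carrier of purine nucleobases, not of amino acids.

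The 6 libraries were poly(A) RNA-seq libraries of primary rBMECs from the cortex of Sprague Dawley (SD) rats aged 18 to 22 days, used after a single passage. The paper's methods name the tissue as the cerebral forebrain. The 3 Hcy libraries came from cells given Hcy for 24 h and the 3 vehicle (Veh) libraries from cells given its solvent, water. The sample labels give a dose of 100 μM Hcy, whereas the treatment text also names a prepared solution of 50 μM, so the dose reached is uncertain. The design text calls the libraries biological replicates, without saying whether they came from separate isolations, so p-values measure the spread between these libraries.

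Libraries held 14024997 to 16764584 counts on genes. Levels are given as library-scaled counts (CPM) normalized with edgeR's TMM factors, and 3 counts, the least taken as detection, were worth 0.178 to 0.215 CPM. Such limits cover counting error only. Veh replicate 3 stood apart from the others of its group, with a chi-square per gene of 29.5 and 26.2 against Veh replicates 1 and 2, where the other pairs within a group gave 5.77 to 7.76. For the counts and named genes below, values without it are given where they change a call. Of the endothelial markers, 10 were tested, of which 0 passed an adjusted p of 0.05 with edgeR, 2 with DESeq2 (Kdr and Vwf) and 3 with edgeR without Veh replicate 3 (Kdr, Tek and Vwf), and 6 reached an unadjusted p of 0.05. Of those 6, Kdr, Flt1 and Vwf were higher in Hcy (log2 fold changes 0.37, 0.25 and 0.36) and Tek, Slco1a4 and Mfsd2a lower (-0.24, -0.53 and -0.44). Over all genes tested, edgeR called 1.32% higher and 1.01% lower, and 13.4% reached an unadjusted p of 0.05. DESeq2 called 4.19%, and edgeR without Veh replicate 3 called 3.48% higher and 3.18% lower. The markers' summed level was 8341 to 8830 CPM in Hcy and 6681 to 8002 CPM in Veh, and Cldn5, a defining tight junction gene of this endothelium, had 0 counts in every library. How Cldn5 was annotated and counted upstream was not tested, so its 0 counts are not shown to mean that its mRNA was missing. The smooth muscle markers summed to 673 to 702 CPM in Hcy and 1120 to 1348 CPM in Veh. With edgeR 3 of the 4 (Acta2, Tagln and Cnn1) were lower in Hcy, where 1.01% of all genes tested were. Their adjusted p was 0.0248, 0.000801 and 0.00177. Acta2 did not pass without Hcy replicate 1, 2 or 3 or Veh replicate 1. The remaining marker, Myh11, had 17, 22 and 15 counts in Hcy and 16, 16 and 25 in Veh. Its groups overlapped, and its log2 fold change was -0.04 (adjusted p = 0.981). Tagln alone averaged 582 CPM in Hcy and 1071 CPM in Veh, most of the smooth muscle sum. Which cells the Acta2, Tagln and Cnn1 RNA came from was not tested. Fibroblast markers summed to 35.7 to 57.8 CPM against 57.5 to 83.9 CPM, and pericyte markers to 4.66 to 7.19 against 3.50 to 4.64 CPM. Oligodendrocyte markers summed to at most 12.2 CPM, neuronal markers to at most 2.81 CPM, microglial markers to at most 2.66 CPM, astrocyte markers to at most 1.01 CPM and epithelial markers to at most 0.836 CPM in any library. Aqp4, Cx3cr1, P2ry12, Ptprc, Rbfox3, Snap25 and Mag were at 0. The part of other cell types in the results below was not tested, and in bulk RNA fewer cells of a type and less RNA per cell cannot be told apart.

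Amino acid carriers move amino acids across the plasma and lysosomal membranes, and brain endothelium depends on them to supply the brain with amino acids it cannot make. Several Slc7 carriers work only as a pair with a heavy chain, Slc3a2 (also called 4F2hc) or Slc3a1, to which they are joined by a disulfide bond. Slc7a5 (LAT1), the main carrier of large neutral amino acids at the blood–brain barrier, is one of them. Others use the sodium gradient (Slc1, Slc6 and Slc38 families) or a proton gradient (Slc36). Homocysteine and its relative cystine are substrates of some of these systems, and many carrier genes are induced through the transcription factor Atf4 when amino acids run short.

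Promoter sequences were available in RefSeq (assembly GRCr8) for 46 of the 62 members, covering 250 bases before and 50 bases after the annotated start. These positions belong to GRCr8 and are not comparable with the deposited gene positions, which name no build. The deposited positions run to 282724300 on chromosome 1, longer than that chromosome is in mRatBN7.2 (rn7), so those printed below should not be placed on that assembly. Of the 4 members that passed the test below, Slc7a5, Slc6a9 and Slc7a8 are among the 46 and are shown, and Slc1a5 is not among them. The letters TGATGNAA, the core of the element bound by C/EBP and Atf4 dimers, and TGACNNNGC, the core of the antioxidant response element bound by Nrf2, were searched on both strands. Neither was found in these 3 promoters, so no base is in capitals.

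Slc7a5 (chr19:66872363-66872662, minus strand): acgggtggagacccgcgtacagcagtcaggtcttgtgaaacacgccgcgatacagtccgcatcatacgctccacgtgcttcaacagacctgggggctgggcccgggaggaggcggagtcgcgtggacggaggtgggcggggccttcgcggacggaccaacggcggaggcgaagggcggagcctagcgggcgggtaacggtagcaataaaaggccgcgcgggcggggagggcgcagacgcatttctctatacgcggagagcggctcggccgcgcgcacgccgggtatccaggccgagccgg
Slc6a9 (chr5:136659826-136660125, plus strand): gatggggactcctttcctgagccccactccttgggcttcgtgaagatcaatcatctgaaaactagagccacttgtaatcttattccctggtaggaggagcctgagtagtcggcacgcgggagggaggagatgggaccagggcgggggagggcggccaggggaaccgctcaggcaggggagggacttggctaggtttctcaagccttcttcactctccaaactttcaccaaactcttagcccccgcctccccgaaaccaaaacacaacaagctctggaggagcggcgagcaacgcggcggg
Slc7a8 (chr15:32212666-32212965, minus strand): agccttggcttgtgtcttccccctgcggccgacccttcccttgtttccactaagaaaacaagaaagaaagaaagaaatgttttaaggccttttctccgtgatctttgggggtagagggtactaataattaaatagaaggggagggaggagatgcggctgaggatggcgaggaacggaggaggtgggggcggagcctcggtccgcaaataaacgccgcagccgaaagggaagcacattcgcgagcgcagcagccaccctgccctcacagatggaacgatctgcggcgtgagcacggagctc

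The Slc7a5 promoter held 69.3% G and C bases and 42 CpG dinucleotides, against 55.7% and 19 for Slc7a8 and 59.0% and 14 for Slc6a9. The median GC content was 59.3% over the 27 tested members with a sequence, 56.3% over the 19 that were not tested and 51.7% over all 33469 promoters. TGATGNAA was present in 3 of the 46 members (6.52%) and in 3.98% of all promoters. The 3 windows are printed with the match in capitals, and the Slc1a4 match lies on the opposite strand.

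Slc1a4 (chr14:98761781-98761806, minus strand): cctccagcgTTGCATCAtccagccag
Slc38a1 (chr7:129681527-129681552, minus strand): gggaaactcTGATGCAAccaaccagt
Slc7a1 (chr12:11664449-11664474, plus strand): gcgcgcggcTGATGAAAccggctcgg

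Their first bases lie 235, 142 and 30 bases before the start, respectively. TGACNNNGC was present in 8 of the 46 members (17.4%), among them Slc38a2, Slc6a6 and Slc7a7, and in 12.1% of all promoters. These matches describe letters only, and a missing match says nothing about a factor.

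Which carriers rBMECs carried mRNA for was read from CPM divided by the deposited gene length in kilobases, a scale that allows for differences in length between genes. The deposited gene models were not checked, so the order and shares below depend on them. On that scale 6 genes made up 72.6% ± 0.896 of the summed level of all carriers and heavy chains in Hcy and 74.0% ± 0.974 in Veh (SD, n = 3). These were Slc38a2, Slc3a2, Slc38a10, Slc7a5, Slc38a3 and Slc7a1. Slc38a2 (SNAT2, a sodium-coupled carrier of small neutral amino acids) was at 99.3 ± 2.86 per kilobase in Hcy and 121 ± 8.50 in Veh. Slc3a2 was at 108 ± 5.79 and 102 ± 8.04 (SD, n = 3 each). Slc3a2 was above Slc38a2 in each Hcy library and below it in each Veh library. Slc38a10 was at 49.9 per kilobase in Hcy and 49.5 in Veh, and Slc7a1 at 28.6 and 25.5. The level of all carriers and heavy chains together was 496 ± 8.94 per kilobase in Hcy and 488 ± 21.0 in Veh (SD, n = 3, exact 2-sided permutation test p = 0.7, the smallest possible being 0.1). Within a group, the ranges over its 3 libraries overlapped in 20 of the 34 pairs of neighbours in the order of levels in Hcy and in 24 of 34 in Veh, so those neighbours did not differ beyond their spread.

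**Figure D1:**
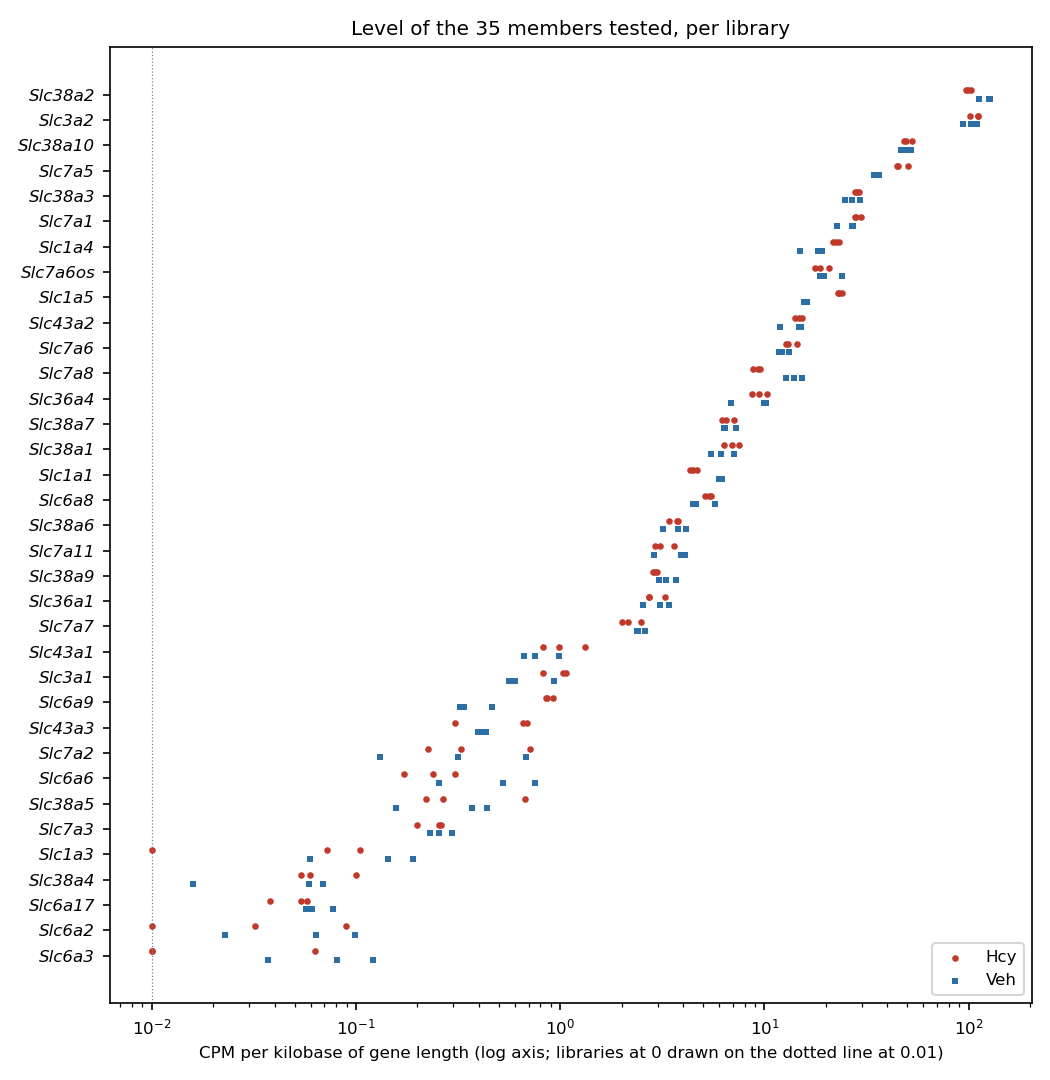
Level of the 35 tested members in each library, as CPM per kilobase of deposited gene length on a log axis, with members ordered by level, Hcy libraries as circles and Veh libraries as squares. Slc38a2 and Slc3a2 lie at the top near 100 per kilobase, and libraries with no count are drawn at 0.01.

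The test of Hcy against Veh was edgeR's quasi-likelihood test, run over all 14603 genes with at least 10 counts, and p-values were adjusted over all of them (Benjamini-Hochberg). With both an adjusted p of at most 0.05 and a change of 1 or more on the log2 scale in either direction, 1 of the 35 members (2.86%) was called, Slc6a9, where 0.486% of all genes tested were. With the replicate number as a block, 0 members were called by these 2 thresholds. Without the fold threshold, 3 members (8.57%) were higher in Hcy, where 1.32% of all genes tested were, and 1 (2.86%) was lower, where 1.01% were. The other 31 did not pass. At an unadjusted p of at most 0.05, where 13.4% of all genes tested lay, were 8 of the 35, the 4 called and Slc1a1, Slc38a2, Slc1a4 and Slc6a6. DESeq2 called all of these but Slc6a6 at an adjusted p of 0.05, where it called 4.19% of all genes tested. Without Veh replicate 3, 4 members were called higher and 3 lower, where 3.48% and 3.18% of all genes tested were. Without any other single library, 1 member was called higher, at most 1 lower and 0 with the fold threshold, where 80 to 151 genes of the whole table were called in either direction in place of 341. By sign alone, 19 members were higher and 16 lower in Hcy, and the median log2 fold change over the 35 was 0.07, beside -0.02 over all genes tested. Without Veh replicate 3 the median over the members was -0.03. The libraries did not overlap in 5 members above Veh (14.3%, against 10.8% of all genes tested) and in 4 below (11.4%, against 9.27%), shares close to the background.

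**Figure D2:**
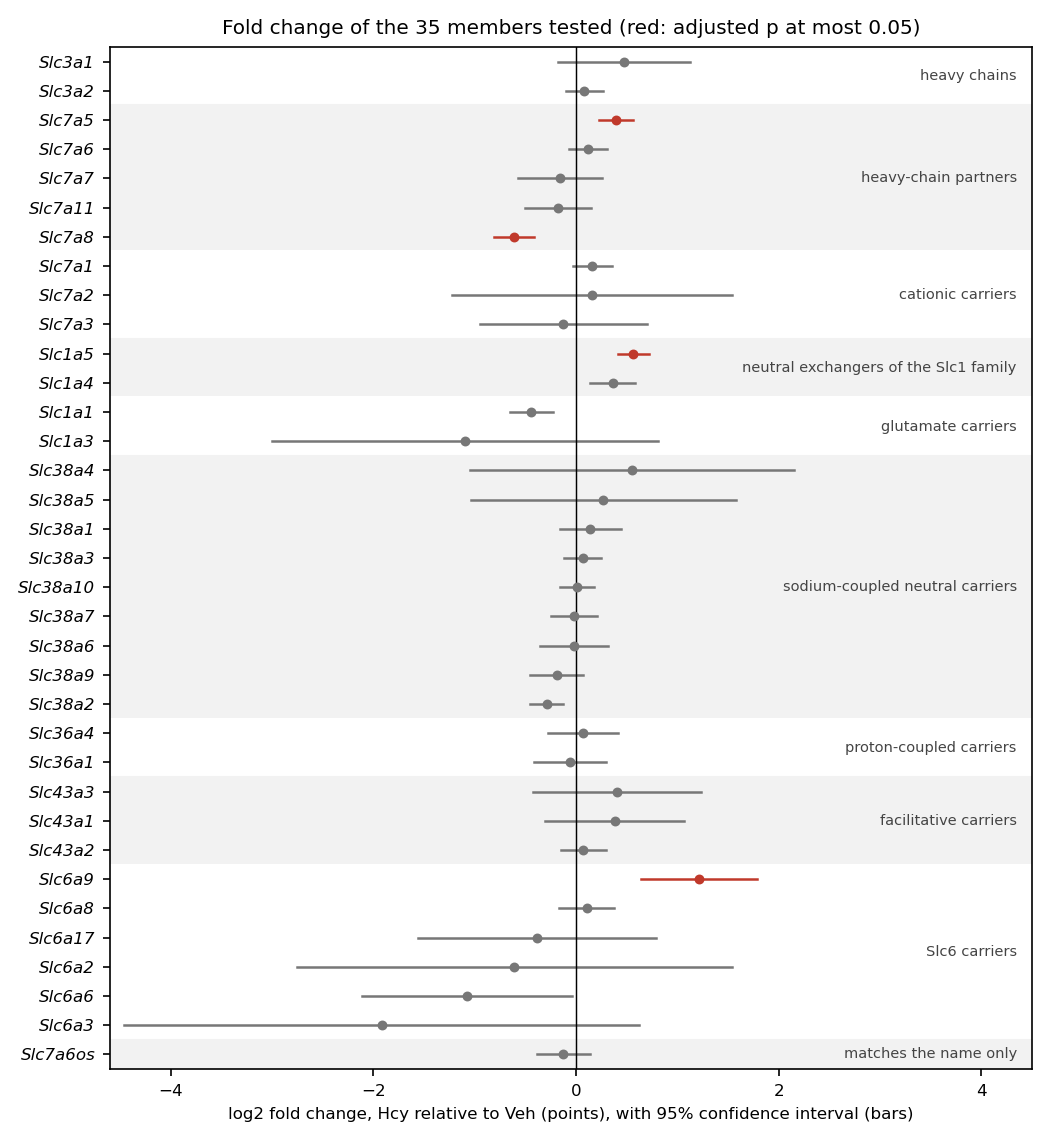
Log2 fold change of Hcy relative to Veh for the 35 tested members, grouped by role, with 95% confidence intervals as bars and members with an adjusted p of at most 0.05 in red. Slc1a5, Slc7a5 and Slc6a9 lie to the right of 0 and Slc7a8 to the left with intervals that exclude 0, and the widest intervals belong to members with few counts.

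Among the heavy chains and their partners, 1 partner rose, 1 fell, and neither heavy chain passed. Of the 10 genes of the partner group (Slc7a5 to Slc7a13 and Slc7a15), 5 were tested, 4 had 0 counts and Slc7a9 had 4. The median log2 fold change of the 5 was -0.16. Slc7a5 (chr19:54693959-54722563, minus strand, in deposited coordinates) was at 174, 156 and 154 CPM in Hcy replicates 1 to 3 and 126, 123 and 119 CPM in Veh replicates 1 to 3. All Hcy libraries lay above all Veh libraries. Its means of 161 ± 10.7 and 122 ± 3.37 CPM (SD, n = 3) gave a log2 fold change of 0.40 (SE 0.07, 95% interval 0.23 to 0.57, adjusted p = 0.0297). Refitted 6 times with 1 library omitted each time, it passed once, without Veh replicate 3, and its adjusted p reached 0.148. Slc7a8 (LAT2, chr15:33369216-33428973, minus strand), which exchanges neutral amino acids large and small, changed the other way. It was at 38.6, 39.4 and 36.4 CPM in Hcy and 63.8, 58.0 and 53.0 CPM in Veh, again with no overlap. Its means were 38.1 ± 1.56 and 58.3 ± 5.41 CPM (SD, n = 3), with a log2 fold change of -0.61 (SE 0.09, adjusted p = 0.0114). With 1 library omitted it passed in 4 of 6 fits, failing without Hcy replicate 1 or 3, and its adjusted p reached 0.0799.

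Slc3a2 itself, the shared heavy chain, was at 228, 207 and 228 CPM in Hcy and 211, 192 and 225 CPM in Veh. The groups overlapped, and the interval of its log2 fold change of 0.08 ran from -0.10 to 0.27 (adjusted p = 0.744). Slc7a6, an exchanger of cationic for neutral amino acids, and Slc7a7, which does the same, had log2 fold changes of 0.11 and -0.16 (adjusted p = 0.628 and 0.791). Slc7a11, the cystine–glutamate exchanger xCT, was at 25.9, 32.2 and 27.3 CPM in Hcy and 34.8, 36.4 and 25.7 CPM in Veh. Its log2 fold change was -0.18 (interval -0.51 to 0.14, adjusted p = 0.667), with overlapping groups. The heavy chain Slc3a1 was counted 27, 36 and 42 times in Hcy, against 37, 22 and 19 in Veh.

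The partners of Slc3a2 pair with the same heavy chain, and their levels per kilobase were also set against each other. This quantity was added after the data were seen, and it is described here without a test. The 6 partner genes of Slc3a2, of which Slc7a10 had no counts, summed to 74.6 ± 2.98 per kilobase in Hcy and 67.9 ± 3.26 in Veh. Slc3a2 stood at 1.45 ± 0.1 times their sum in Hcy and 1.5 ± 0.183 times in Veh. The difference of these means was -0.06, and 0.04 without Veh replicate 3, so it had no stable sign. Slc7a5 made up 62.5% ± 2.12 of the partner sum in Hcy and 52.2% ± 1.24 in Veh, and Slc7a8 12.3% ± 0.372 and 20.6% ± 1.09 (SD, n = 3 each). The ratio of Slc7a5 to Slc7a8 was 5.42, 4.77 and 5.09 in Hcy and 2.37, 2.55 and 2.70 in Veh. Slc7a6 took 18.0% of the sum in Hcy and 18.3% in Veh, and Slc7a11 took 4.30% and 5.33%.

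**Figure D3:**
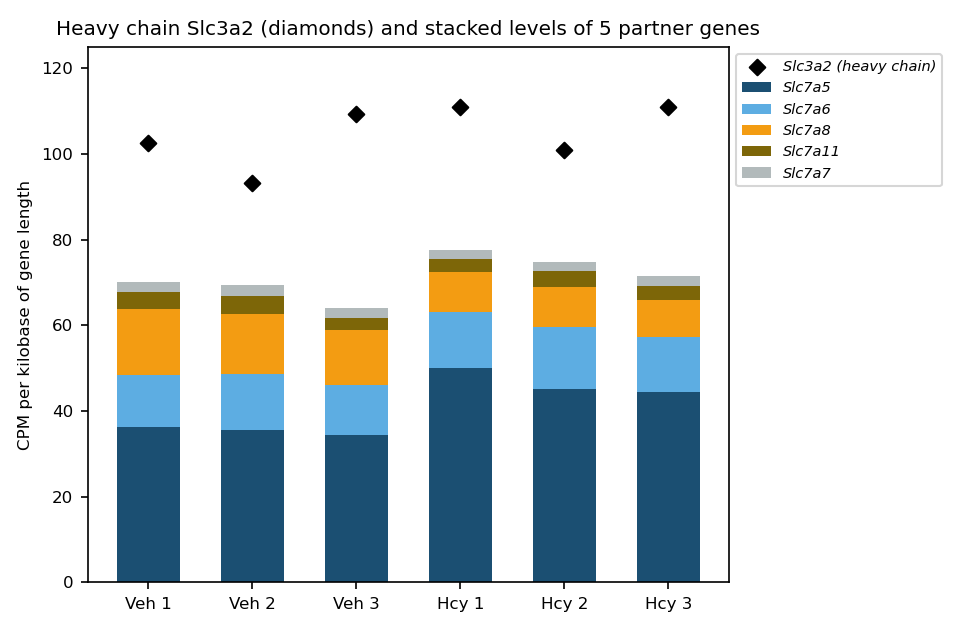
Level per kilobase of 5 partner genes, stacked for each library, and of the heavy chain Slc3a2 (diamonds). The stacks reach 64.1 to 77.6 per kilobase, the Slc7a5 segment is taller in each Hcy library than in any Veh library, and the Slc7a8 segment is shorter.

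Of the neutral exchangers of the Slc1 family, Slc1a5 rose and Slc1a4 did not pass. Slc1a5 (ASCT2, chr1:78710539-78724794, plus strand), which exchanges glutamine and other small neutral amino acids, was at 64.1, 66.2 and 63.0 CPM in Hcy and 43.5, 42.8 and 44.4 CPM in Veh. Each Hcy library lay above each Veh library with a wide gap. Its means of 64.4 ± 1.6 and 43.6 ± 0.812 CPM (SD, n = 3) gave a fold change of 1.48 and a log2 fold change of 0.56 (SE 0.07, adjusted p = 0.00483). With 1 library omitted it passed in 6 of 6 fits, with an adjusted p of at most 0.0393. Slc1a4 (ASCT1), a carrier of alanine, serine and cysteine, was at 89.6, 83.6 and 86.6 CPM in Hcy and 73.8, 70.5 and 57.7 CPM in Veh. The groups did not overlap, and its log2 fold change was 0.36 (adjusted p = 0.122), or 0.26 without Veh replicate 3 (adjusted p = 0.0425). DESeq2 on the same genes gave it an adjusted p of 0.0314.

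Among the glutamate carriers, 2 of 5 were tested and neither passed. Slc1a1 (EAAT3), which also takes up cysteine, was at 16.7, 16.1 and 17.4 CPM in Hcy and 22.4, 22.6 and 23.2 CPM in Veh. All Hcy libraries lay below all Veh libraries, and its log2 fold change of -0.44 (SE 0.09) missed the threshold narrowly, with an adjusted p of 0.0505. That adjusted p was 0.0357 without Veh replicate 3 and 0.0268 with DESeq2. Slc1a3, the glial carrier GLAST, had 4, 0 and 7 counts in Hcy and 4, 9 and 11 in Veh. Slc1a2 (GLT-1), with a deposited length of 882 bases, had 0 counts in every library. By counting error alone this allows up to 0.215 CPM, and whether the deposited gene model captures its reads was not tested.

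The Slc6 family, carriers of glycine, taurine, creatine, proline, GABA and monoamines, gave 6 tested genes of 19, of which 1 rose and 0 fell. Of the others, 5 had 0 counts. Slc6a9 (GlyT1, chr5:136669674-136703697, plus strand), a glycine carrier, was low in both groups, with 42, 42 and 47 counts in Hcy against 18, 24 and 16 in Veh. That is 2.88 ± 0.118 CPM against 1.24 ± 0.255 CPM (SD, n = 3), and the log2 fold change was 1.22 (SE 0.25, 95% interval 0.64 to 1.79, adjusted p = 0.0460). All Hcy libraries were above all Veh libraries. With 1 library omitted it passed in 1 of 6 fits, the one without Veh replicate 3, and its adjusted p reached 0.180. With the replicate number as a block its adjusted p was 0.0845, so it did not pass. Its deposited interval overlaps that of Ccdc24, on the opposite strand, over 24 bases, and Ccdc24 had at most 2 counts in any library. Slc6a6, the taurine carrier, had 9, 7 and 14 counts in Hcy against 24, 32 and 10 in Veh. Its groups overlapped and its log2 fold change was -1.08 (interval -2.12 to -0.04, adjusted p = 0.345). Slc6a8, the creatine carrier, had a log2 fold change of 0.10 (adjusted p = 0.788). Slc6a2 and Slc6a3, carriers of noradrenaline and dopamine, had at most 8 and 7 counts in any library. Slc6a20, a proline carrier, had 0, 0 and 1 counts in Hcy against 1, 0 and 1 in Veh.

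Of the 11 sodium-coupled neutral carriers, the Slc38 family, 9 were tested and 0 passed with edgeR, 1 having an unadjusted p of at most 0.05. Slc38a2, the member with the highest CPM, was at 459, 448 and 474 CPM in Hcy and 582, 590 and 518 CPM in Veh. The groups did not overlap. Its log2 fold change was -0.29 (SE 0.07, adjusted p = 0.0887), with an adjusted p of 0.00275 without Veh replicate 3 and 0.0172 with DESeq2. Slc38a1 and Slc38a3, glutamine carriers, had log2 fold changes of 0.14 and 0.07 (adjusted p = 0.720 and 0.800). Slc38a10 had one of 0.01 (interval -0.16 to 0.18, adjusted p = 0.977). Slc38a9, the lysosomal arginine sensor of mTORC1, had a log2 fold change of -0.19 (adjusted p = 0.545) with libraries that did not overlap. Slc38a5 had 7, 19 and 7 counts in Hcy and 5, 11 and 12 in Veh.

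The cationic carriers, which take up arginine and lysine, gave 3 tested genes of 5, and 0 passed, with 0 at an unadjusted p of at most 0.05. Slc7a1 (CAT1), the main one of these in the cells, was at 183, 196 and 186 CPM in Hcy and 179, 177 and 149 CPM in Veh. The groups did not overlap, but its log2 fold change of 0.16 had an interval of -0.03 to 0.36 (adjusted p = 0.486). Of the Slc43 family, whose members Slc43a1 and Slc43a2 are facilitative carriers of large neutral amino acids, 3 genes were tested and 0 passed, with 0 at an unadjusted p of at most 0.05. Slc43a2 had a log2 fold change of 0.07 (adjusted p = 0.829). Slc43a1 had 25, 36 and 25 counts in Hcy and 23, 19 and 26 in Veh, and Slc43a3 had 25, 28 and 14 against 20, 17 and 16. The proton-coupled carriers Slc36a1 and Slc36a4, which serve lysosomes and other membranes, had log2 fold changes of -0.06 and 0.07 (adjusted p = 0.927 and 0.903).

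**Figure D4:**
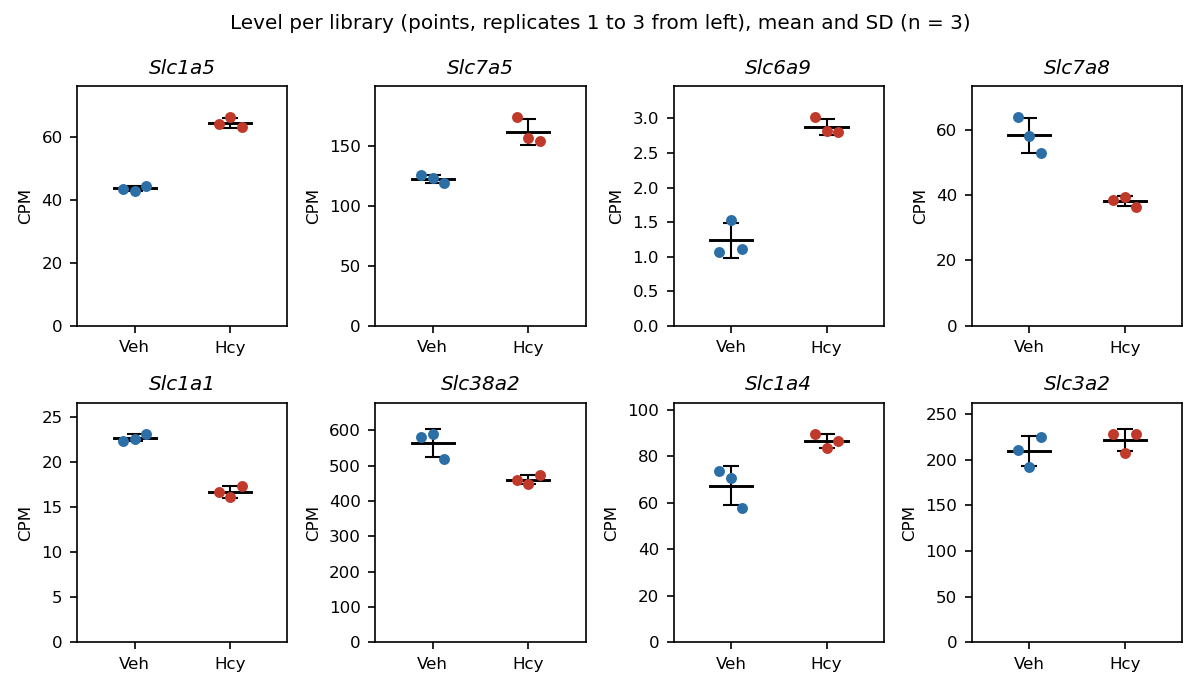
CPM per library (points, replicates 1 to 3 from left) for the 7 members with the smallest p and for the heavy chain Slc3a2, with the mean and SD of each group as lines. Slc1a5, Slc7a5, Slc6a9 and Slc1a4 are higher in each Hcy library than in any Veh library, Slc7a8, Slc1a1 and Slc38a2 are lower, and the groups of Slc3a2 overlap.

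Genes that act upstream or downstream of the carriers were taken from lists chosen with earlier results of these data known. Their counts beside the shares of all genes tested are therefore a description and not independent evidence. Of 15 genes of the amino acid response, the program in which Atf4 induces genes for amino acid supply, 3 rose and 0 fell, where 1.32% and 1.01% of all genes tested did, and the median log2 fold change was 0.15. They were Vldlr, a lipoprotein receptor (0.81, adjusted p = 0.00134), Psat1, an enzyme of serine synthesis (0.75, adjusted p = 0.00220), and Chac1, which breaks down glutathione (0.99, adjusted p = 0.00353). Trib3 and Asns also passed with DESeq2 and with a minimum of 1 count, which called 5 genes each, DESeq2 calling 4.19% of all genes tested. Without Veh replicate 3, where 3.48% of all genes tested rose, 6 of the 15 passed, Atf4 added. With edgeR on all libraries Trib3 had a log2 fold change of 0.65 (adjusted p = 0.0507), Asns of 0.37 (adjusted p = 0.0863) and Atf4 itself of 0.15 (adjusted p = 0.526). Of 10 genes of the Nrf2 pathway, including Nfe2l2 (Nrf2) and its inhibitor Keap1, 0 rose and 4 fell, where 1.32% and 1.01% of all genes tested did, with a median log2 fold change of -0.25. Beside Hmox1 (-1.17) and Nqo1 (-1.01), these were Osgin1 (-0.47, adjusted p = 0.0215) and Txnrd1 (-0.35, adjusted p = 0.0232). Without Veh replicate 3, where 3.18% of all genes tested fell, 5 of the 10 passed, Gclc added. Osgin1 and Txnrd1 failed in 5 of 6 fits with 1 library omitted, and with the replicate number as a block Txnrd1 had an adjusted p of 0.0558. Of 14 genes tested of mTORC1 amino acid sensing, 0 passed, 1 reached an unadjusted p of 0.05, the median was -0.08, and Rptor passed without Veh replicate 3. Of 9 tested amino acid carriers outside the name rule, 0 passed, 0 reached an unadjusted p of 0.05, and the median was -0.04. DESeq2 called 0 genes of either list.

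**Figure D5:**
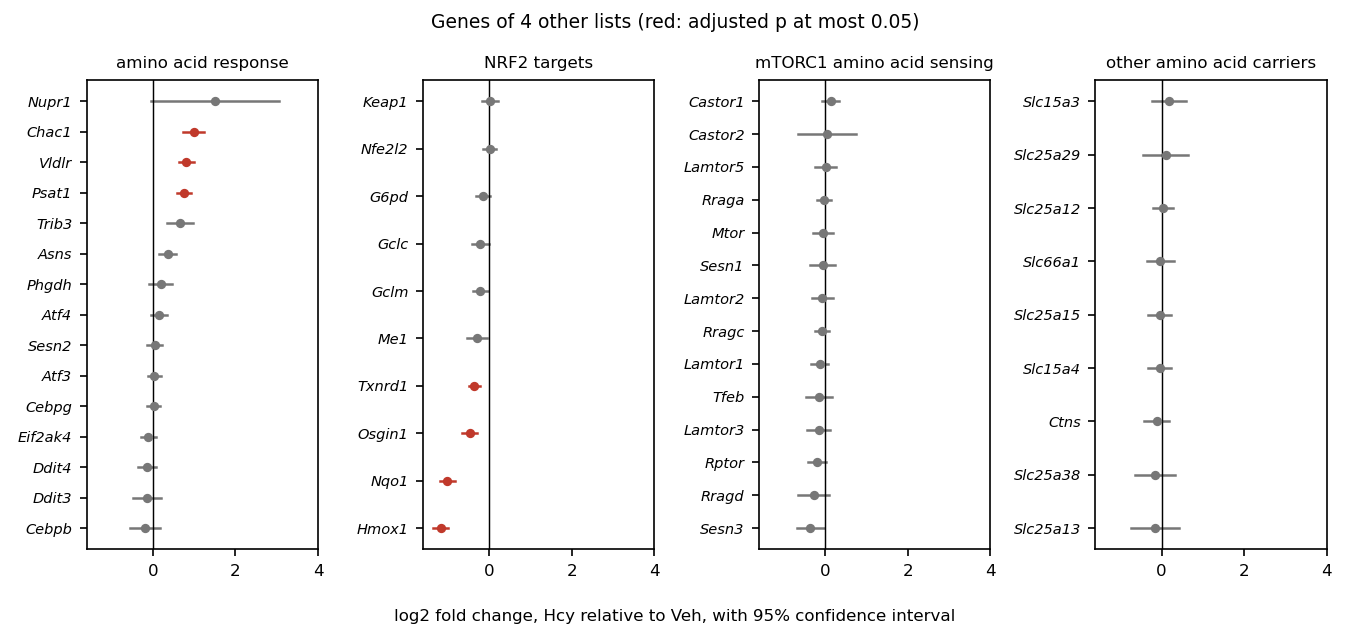
Log2 fold change of Hcy relative to Veh for the genes of 4 lists, with 95% confidence intervals as bars and genes with an adjusted p of at most 0.05 in red. The amino acid response list shows 3 such genes, all to the right of 0, and the Nrf2 list shows 4, all to the left.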

How the data were processed

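RNA-seq of 3 Hcy and 3 Veh rBMEC libraries was used as deposited. The values the authors deposited are unnormalized read counts for each gene, with gene positions and lengths, and the submitters' processing notes name fastp, HISAT2 2.2.1, StringTie 2.2.3, Cufflinks and featureCounts 2.0.6 and the builds mRatBN7.2 and rn7, with no roles, although the deposited positions do not match the length of chromosome 1 in that assembly. The strand setting of the counting is not given in the sources used here, so reads of overlapping or near-identical genes may be split. A table of the authors' own DESeq2 comparison (scaled signal, fold changes and p-values) was not used.

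Groups came from the labels. Genes with at least 10 summed counts (14603) were normalized with TMM and compared with edgeR 4.0.16 (R 4.3.3, limma 3.58.1), by its quasi-likelihood test, with p adjusted by Benjamini-Hochberg. Alternatives were DESeq2 1.42.0, other scalings and count filters, a prior count of 2, a replicate block, and leaving out each library. Named genes were the members called, the 6 with the highest level per kilobase, members with known roles at brain endothelium, and up to 4 called genes of each other list. Others that are named, such as Slc7a7, were chosen after their values were seen. Members and lists were chosen with earlier results of these data known, so they are not independent evidence. Promoters came from RefSeq (GRCr8).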

Additional observations from a re-analysis of the deposited data

How the results depend on the processing

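Library totals or RLE factors changed no count of members called. With filterByExpr 2 members were called lower, and with DESeq2 3, against 1. Over the whole table filterByExpr called 393 genes in either direction and DESeq2 612, against 341. With a minimum of 1 count the median log2 fold change of the members was 0.0091, against 0.07. With 1 library omitted at a time, members called with the fold threshold ranged from 0 to 1, those higher from 1 to 4, those lower from 0 to 3, the median from -0.025 to 0.050, and members with no overlap between groups from 10 to 15, against 9. Fewer libraries leave fewer ways to overlap. The share of all genes without overlap was not computed in these fits, so no conclusion about the members is drawn from that last count. The cause of the other moves was not tested.

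In the same fits the log2 fold changes of 5 of the named members that did not pass changed sign. Members outside the rule for named genes were not followed in these fits. Slc38a10 ranged from -0.030 to 0.053, Slc38a5 from -0.39 to 0.56, Slc36a1 from -0.17 to 0.041, Slc36a4 from -0.088 to 0.16 and Slc43a2 from -0.025 to 0.14. Genes called over the whole table numbered 341, and from 80 to 957 with a library left out, the highest without Veh replicate 3.

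Replicate numbers run from 1 to 3 in both groups. Deviations of same-numbered libraries correlated at 0.02, 0.17 and 0.06 over 12296 genes, and Hcy replicate 1 correlated best with Veh replicate 3, so the numbers were not taken as pairs. With the replicate block 0 members were called with the fold threshold, 2 were higher and 1 lower, and Slc6a9 had an adjusted p of 0.0845. The block also left 3 of the 4 Nrf2 pathway calls, without Txnrd1. Genes called over the table numbered 298. Depth limits the 9 tested members with under 100 counts.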

Other observations

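Some genes with a broad or expected presence were listed at 0 counts in all 6 libraries. Lamtor4, a subunit of the Ragulator complex that holds mTORC1 at the lysosome, had 0 counts, whereas its companions Lamtor1, Lamtor2, Lamtor3 and Lamtor5 had from 35.1 to 79.2 CPM in every library. Slc16a10, a carrier of aromatic amino acids, and the tight junction gene Cldn5 also had 0 counts in each. How these genes were annotated and counted upstream was not tested, so 0 counts of a carrier or of another gene in this table are not shown to mean that its mRNA was missing.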
